A study of Caenorhabditis elegans with 6 samples.

Results

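The genes described here encode the soluble machinery of protein synthesis other than the ribosome. They are 22 translation factors and 32 aminoacyl-tRNA synthetases, 54 of the 20240 gene models counted in the 2-cell *C. elegans* embryo. Members were chosen by gene name. The factors are those whose public name begins with eif, eef, iff, iftb or iffb, and the synthetases are those named for an amino acid letter followed by ars. The eIF4E and eIF4G genes (*ife* and *ifg*) are not among the members. All 54 members were present genes, defined here by a mean above 10 normalized read counts over the libraries and above 0 in each cell. All 54 were also above a stricter mean of 50.

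Initiation factors bring the initiator tRNA, the mRNA and the ribosomal subunits together, with eIF3 as the large multisubunit platform on the small subunit. Elongation factors then deliver charged tRNAs to the ribosome and move it along the message. Aminoacyl-tRNA synthetases charge each tRNA with its amino acid, fall into the structurally unrelated classes I and II, and serve the cytosol and the mitochondria, often through separate genes. The early embryo relies on mRNA supplied by the mother, so the levels below are those of maternal RNA in the daughters of the zygote.

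RNA of AB, the anterior cell, and of P1, the posterior cell that carries the germ line, was amplified by *in vitro* transcription from an oligo(dT) primer and sequenced in 3 P1 and 3 AB libraries. The embryos came from N2 wild-type worms grown at 20 °C, and the cells were separated by hand after the eggshell was digested. Each library is a pool of cells, and matched P1 and AB cells were pooled for each replicate, so that libraries of the same number are called a pair. The values are shares of each library, and the amount of RNA per cell was not put on an absolute scale.

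The libraries held 21249850 to 26237094 counted reads for P1 and 26971551 to 35591254 for AB. P1 replicate 1 stood apart from the rest. Its log2 levels correlated with the other libraries at Pearson's r of 0.911 to 0.924 over the present genes, against 0.964 to 0.972 among the other libraries of the same cell. The AB marker *mex-3* took 1060 to 1225 CPM in P1 and 2281 to 2351 CPM in AB and was AB-enriched (log2 fold change -0.98, standard error 0.25, edgeR adjusted p = 0.0675). The P1 markers *pos-1* and *cey-2* did not pass the test, with log2 fold changes of 0.18 and 0.47. Markers of other cells were low. The 29 sperm *msp* genes held 1 read in all, the muscle gene *myo-3* at most 1.98 CPM and the hypodermal gene *dpy-7* at most 0.114 CPM. Intestinal *vit* genes took 12.1 CPM in P1 replicate 1 and 10.6 CPM in AB replicate 1. In the other libraries they took 0.0762 to 0.386 CPM, so the replicate 1 libraries of both cells differed from the rest in these genes.

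No translation factor and no synthetase was called different between P1 and AB. The study's comparison was P1 over AB, made here on the raw counts with edgeR's quasi-likelihood test at an adjusted p under 0.10. It called 0.856% of the 7945 present genes P1-enriched and 0.604% AB-enriched. Among the factors the smallest adjusted p was 0.59 and among the synthetases it was 0.231 (edgeR). At an unadjusted p under 0.05, 1 factor (*iff-1*) and 3 synthetases (*vars-1*, *mars-1* and *pars-2*) were higher in P1, against 5.8% of the present genes, and 0 of either group were lower, against 4.59%. DESeq2 called 0 factors and 1 synthetase (*mars-1*) P1-enriched, against 1.2% of the present genes, and 0 members AB-enriched, against 0.944%. At an unadjusted p under 0.05 DESeq2 gave 1 factor (*eef-1A.1*) and 3 synthetases higher in P1, against 4.81% of the present genes, and 0 members lower, against 3.85%.

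The factors nevertheless lay to one side. Their median log2 fold change was 0.30 and 19 of the 22 values were above 0. Over all present genes the median was 0.01 and 4073 of 7945 values were above 0. The synthetases were close to even between the cells, with a median of 0.07 and 21 of 32 values above 0. Single standard errors were wide, with a median of 0.25 for the factors and 0.24 for the synthetases. The factors' median rested on P1 replicate 1: without that library it was 0.05, with 14 of 22 values above 0, and the synthetases' median was 0.09. All present genes had a median of -0.02 in that fit, with 3671 of 7945 values above 0. In pairs 1, 2 and 3 the median log2 ratio of the factors was 0.68, 0.09 and 0.02, and that of the synthetases was -0.12, 0.15 and 0.03.

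The direction within pairs was counted without a fit. Of the 22 factors, 9 were higher in P1 in all 3 pairs, against 19.1% of the present genes, and 2 (*eif-3.C* and *eif-3.D*) were lower in all 3, against 21.4%. Of the 32 synthetases, 8 were higher in all 3 pairs and 2 (*iars-2* and *wars-2*) were lower. In pairs 2 and 3 alone, an alternative chosen after seeing the data, 9 factors and 20 synthetases were higher in both, against 33.6% of the present genes. In the same pairs 3 factors and 5 synthetases were lower in both, against 32.8%.

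Groups that did not overlap were few. All P1 libraries lay above all AB libraries for 2 factors (*eef-1A.1* and *eif-3.E*) and 3 synthetases (*mars-1*, *ears-2* and *fars-2*), against 7.1% of the present genes. All P1 libraries lay below all AB libraries for 1 factor (*eif-3.C*) and 1 synthetase (*wars-2*), against 8.81%.

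**Figure D1:**
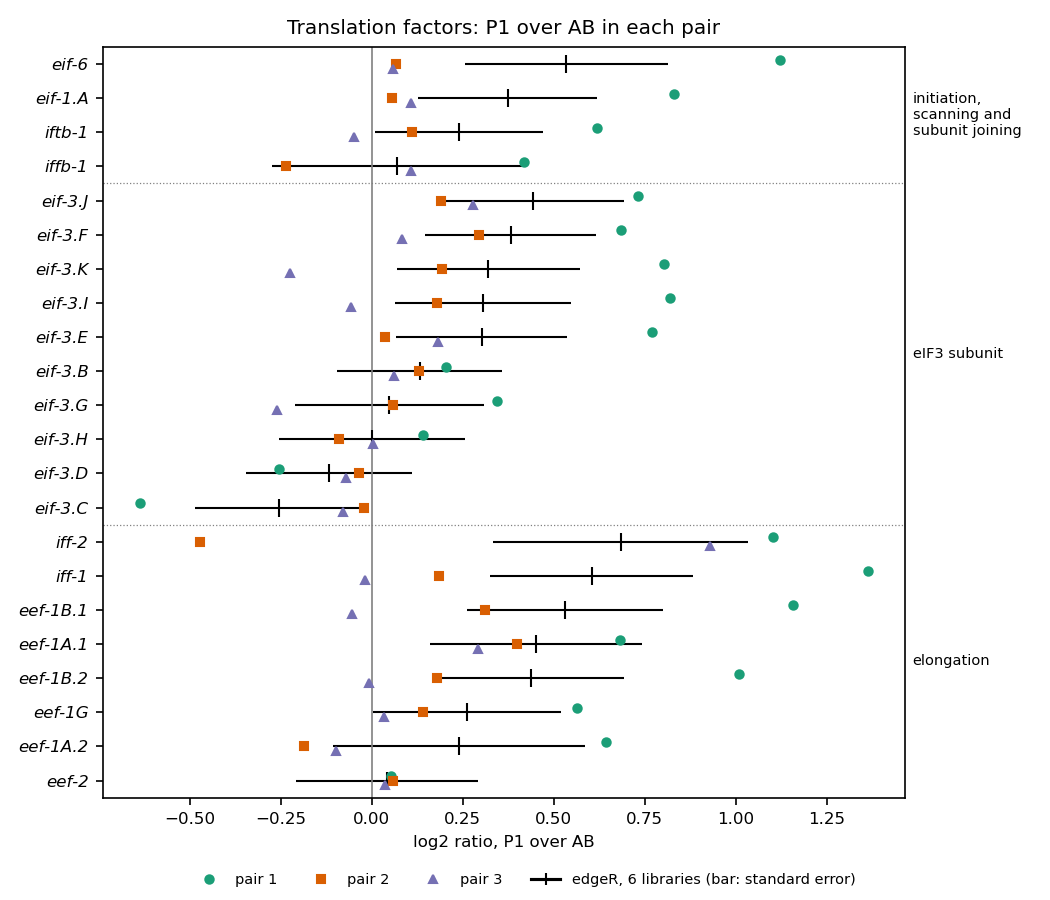
Log2 ratio of P1 over AB for the 22 translation factors, grouped by role and ordered by fold change. Symbols are the ratios within pairs 1, 2 and 3 and black ticks are edgeR log2 fold changes over 6 libraries with their standard errors. The pair 1 values run to 1.36, while most values of pairs 2 and 3 lie near 0.

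Among the 4 factors of scanning and subunit joining, log2 fold changes ran from 0.07 to 0.53, with a median of 0.31. *eif-6* encodes eIF6, which binds the large subunit and keeps it from joining too early. It had 9397, 3455 and 4343 normalized read counts in P1 replicates 1, 2 and 3, against 4316, 3301 and 4169 in AB replicates 1, 2 and 3. Only P1 replicate 1 stood above the range of the AB libraries by a wide margin. For *eif-6* the log2 fold change was 0.53 (standard error 0.28, edgeR adjusted p = 0.668), and without P1 replicate 1 it was -0.04.

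The other members of this group had lower ratios. *eif-1.A*, for the scanning factor eIF1A, had a log2 fold change of 0.37 and *iftb-1*, for the beta subunit of the tRNA carrier eIF2, one of 0.24. *iffb-1*, for the subunit joining GTPase eIF5B, had the lowest value of the group at 0.07. Its level differed more among replicates than between cells, with 1005, 1097 and 2566 normalized read counts in P1, against 751, 1292 and 2384 in AB. Replicate 3 was thus the highest library of *iffb-1* in both cells.

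The 10 named subunits of eIF3 ran from -0.25 to 0.44 in log2 fold change, with a median of 0.22. Of these values 7 were above 0 and 10 of 10 lay within 0.5 of 0. Together these 10 took 1791 ± 91.7 CPM in P1 and 1720 ± 21.9 CPM in AB (SD, n = 3 each). Any subunit under another name was not included. The named subunits thus held near-equal shares of the reads in both cells, though single subunits leaned in different directions.

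*eif-3.J*, a loosely bound subunit, had the highest fold change of the named subunits. Its libraries held 9155, 4999 and 4953 normalized read counts in P1, against 5517, 4383 and 4081 in AB. Each P1 library was above its AB partner, but P1 replicates 2 and 3 lay below AB replicate 1. For *eif-3.J* the log2 fold change was 0.44 (standard error 0.25, edgeR adjusted p = 0.682), and 0.07 without P1 replicate 1.

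*eif-3.C*, one of the large core subunits, had the lowest fold change. It had 10232, 12172 and 12175 normalized read counts in P1, against 15932, 12367 and 12856 in AB. Its P1 libraries lay below every AB library, although P1 replicates 2 and 3 were close to AB replicate 2. The log2 fold change of *eif-3.C* was -0.25 (standard error 0.23, edgeR adjusted p = 0.746).

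*eif-3.D*, whose human counterpart can bind mRNA caps, had 5803, 7856 and 7104 normalized read counts in P1, against 6930, 8049 and 7462 in AB. *eif-3.H* had 1055, 1311 and 1490 in P1, against 958, 1395 and 1487 in AB. The P1 and AB ranges of both genes overlapped. Their log2 fold changes were -0.12 for *eif-3.D* and -0.00 for *eif-3.H*.

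*eif-3.E* was the only subunit with all P1 libraries above all AB libraries, at 2179, 1920 and 2064 normalized read counts in P1, against 1277, 1874 and 1818 in AB. P1 replicate 2 exceeded AB replicate 2 by little. The fitted log2 fold change was 0.30 (standard error 0.24, edgeR adjusted p = 0.713), and 0.24 without P1 replicate 1.

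Subunits of eIF3 assemble into one complex, but their RNA levels per length were unequal. In mean normalized read counts per kb of the longest transcript, *eif-3.J* was highest at 6067, followed by *eif-3.K* at 5160, *eif-3.F* at 4293, *eif-3.C* at 4192 and *eif-3.D* at 3980. *eif-3.B* had 2563 per kb, and *eif-3.I*, *eif-3.E*, *eif-3.H* and *eif-3.G* lay between 854 and 1196. Libraries primed at the poly(A) tail and amplified need not cover a transcript evenly, so these levels per kb are approximate.

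Elongation factors were the most abundant members. The top 5 factors by level per kb were all of this group, and *eef-1A.1*, which encodes the tRNA-delivering GTPase eEF1A, ranked 2 among the 7806 present genes with a length. Its mean level was 259091 normalized read counts per kb. *eef-1A.1* alone took 16976 ± 303 CPM in P1 and 12601 ± 1256 CPM in AB (SD, n = 3 each), which was most of what all 22 factors took.

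*eef-1A.1* (chromosome III, 6969971 to 6971663 in ce10) had 499879, 454663 and 428571 normalized read counts in P1, against 311528, 344495 and 350203 in AB. Every P1 library was above every AB library, and P1 was higher in all 3 pairs. For *eef-1A.1* the log2 fold change was 0.45 (standard error 0.29, edgeR adjusted p = 0.691), and 0.37 without P1 replicate 1. With the replicate block the standard error was 0.13, and the gene still did not pass (edgeR adjusted p = 0.316). In the pairs its log2 ratios were 0.68, 0.40 and 0.29.

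Its paralog *eef-1A.2* was far lower, with 1025, 393 and 389 normalized read counts in P1, against 656, 447 and 416 in AB. Replicate 1 was the highest library of *eef-1A.2* in each cell, and the groups overlapped. edgeR gave a log2 fold change of 0.24 (standard error 0.35, edgeR adjusted p = 0.82), and -0.40 without P1 replicate 1. Per kb, *eef-1A.1* exceeded *eef-1A.2* by 1142 ± 464 times in P1 and by 867 ± 242 times in AB (SD, n = 3 each). The paralogs are near-identical, and how reads that match both were counted is not stated in the sources used here, so the level of *eef-1A.2* is uncertain.

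The subunits of eEF1B, which recharges eEF1A with GTP, had similar profiles to each other. *eef-1B.1* had 43631, 22728 and 22025 normalized read counts in P1, against 19552, 18319 and 22856 in AB. P1 replicate 1 was by far the highest of the 6 libraries. Over the 6 libraries the log2 fold change was 0.53 (standard error 0.27, edgeR adjusted p = 0.65), and 0.12 without P1 replicate 1. *eef-1B.2* had a log2 fold change of 0.44, with the same high library.

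*eef-1G*, for the gamma subunit of the same complex, was second in level per kb among the factors, at 39884. It had 79549, 55265 and 52913 normalized read counts in P1, against 53763, 50173 and 51736 in AB. P1 replicate 1 was again far above the rest, and P1 replicate 3 lay inside the AB range. On the log2 scale the fold change was 0.26 (standard error 0.26, edgeR adjusted p = 0.746).

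*eef-2*, for the translocation factor eEF2, was the most even of the abundant factors. It had 58215, 48220 and 50179 normalized read counts in P1, against 56112, 46336 and 48975 in AB. P1 and AB libraries of one number were nearly equal, and the log2 ratio was 0.05 in pair 1, 0.06 in pair 2 and 0.04 in pair 3. For *eef-2* the log2 fold change was 0.04 (standard error 0.25, edgeR adjusted p = 0.971).

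The paralogs *iff-1* and *iff-2* encode eIF5A, which helps the ribosome through difficult sequences. In *C. elegans*, *iff-1* is known for its role in the germ line and *iff-2* for its role in the soma. *iff-1* (chromosome III, 9745780 to 9747108 in ce10) had 17816, 7096 and 8561 normalized read counts in P1, against 6919, 6248 and 8671 in AB. Only P1 replicate 1 stood above the AB range. Its log2 fold change was 0.60 (standard error 0.28, unadjusted p = 0.0391, edgeR adjusted p = 0.59).

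*iff-2* had the highest fold change of the factors, with 897, 265 and 701 normalized read counts in P1, against 417, 368 and 368 in AB. P1 replicate 2 was the lowest of its 6 libraries and P1 replicate 1 the highest, so that the spread within P1 exceeded the difference between the cells. edgeR gave a log2 fold change of 0.68 (standard error 0.35, edgeR adjusted p = 0.659). Without P1 replicate 2, *iff-1* (adjusted p = 0.0826) and *iff-2* (adjusted p = 0.0998) passed edgeR's test, in a fit that called 3.52% of the present genes P1-enriched. Without P1 replicate 1 the log2 fold change was 0.08 for *iff-1* and 0.30 for *iff-2*. Per kb, *iff-1* exceeded *iff-2* by 29.5 ± 10.9 times in P1 and by 28.6 ± 5.93 times in AB (SD, n = 3 each).

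Summed over the 22 factors, P1 replicates 1, 2 and 3 held 28131, 24664 and 25145 CPM, against 18943, 20518 and 21700 CPM in AB. The sums did not overlap, and *eef-1A.1* made most of the difference. Without *eef-1A.1*, the other 21 factors held 10806, 7873 and 8334 CPM in P1, against 7765, 7451 and 8143 CPM in AB, and P1 replicate 2 lay inside the AB range.

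**Figure D2:**
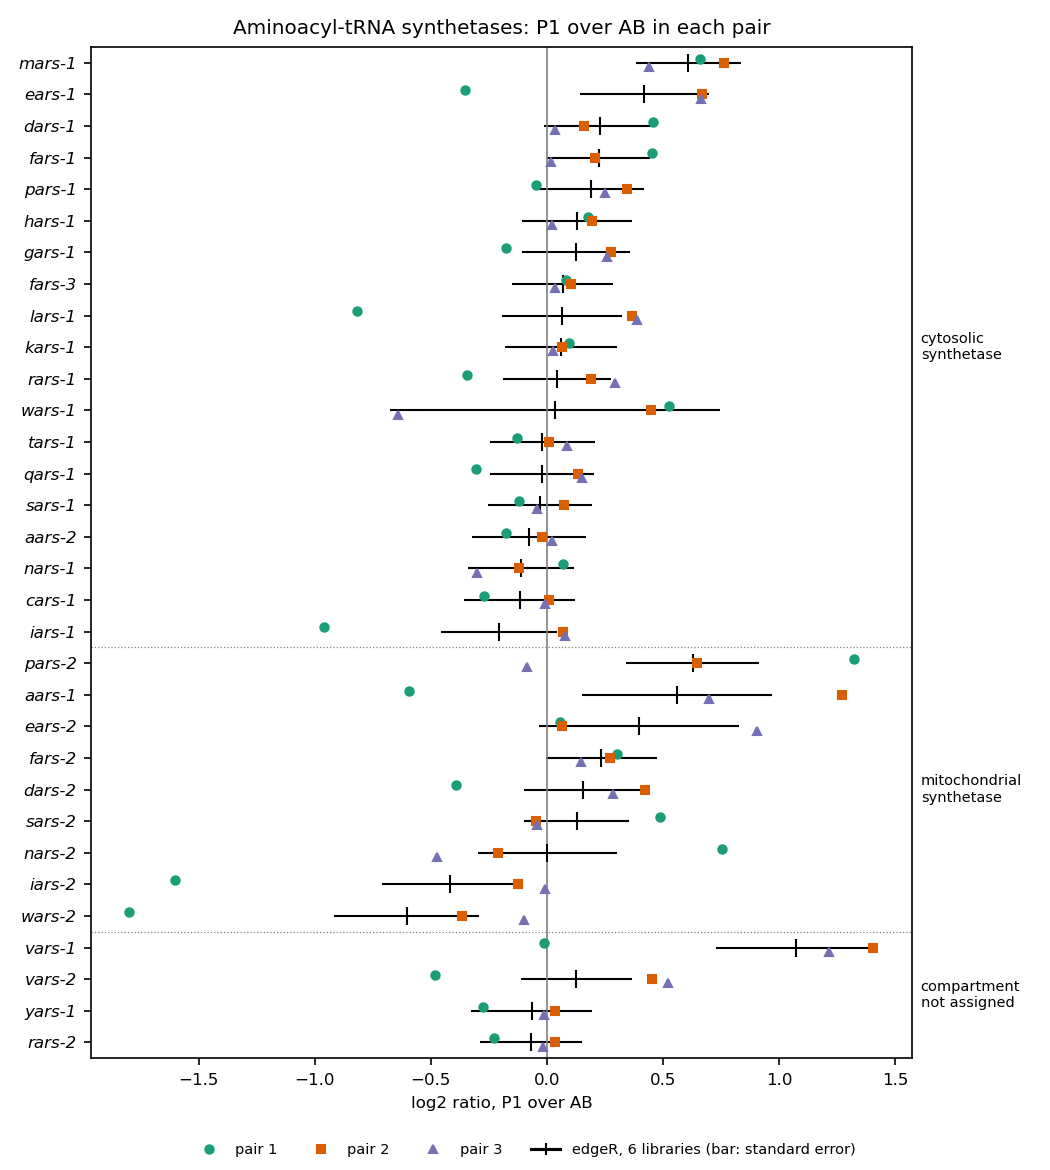
Log2 ratio of P1 over AB for the 32 aminoacyl-tRNA synthetases, grouped by compartment and ordered by fold change. Symbols are the ratios within pairs 1, 2 and 3 and black ticks are edgeR log2 fold changes over 6 libraries with their standard errors. In *mars-1* all 3 pairs lie between 0.44 and 0.76, whereas in *vars-1* and *ears-1* pair 1 lies apart from the other two.

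The 32 synthetases together took 7036 ± 413 CPM in P1 and 6708 ± 189 CPM in AB (SD, n = 3 each). The sums were 6589, 7404 and 7116 CPM in P1 replicates 1, 2 and 3, against 6848, 6783 and 6493 CPM in AB, and they overlapped through P1 replicate 1. The 19 cytosolic enzymes took most of this, at 6272 ± 290 CPM in P1 and 5978 ± 209 CPM in AB. The 9 mitochondrial enzymes took 391 ± 57.5 CPM in P1 and 387 ± 31.9 CPM in AB.

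Cytosolic synthetases had log2 fold changes from -0.21 to 0.61 with a median of 0.06, and 18 of 19 lay within 0.5 of 0. The exception was *mars-1*, the methionyl enzyme that charges both initiator and elongator tRNA. *mars-1* (chromosome IV, 11631920 to 11635464 in ce10) had 11780, 11292 and 11131 normalized read counts in P1, against 7458, 6650 and 8202 in AB. The P1 libraries agreed closely and all lay above the AB libraries, P1 replicate 1 included. In pairs 1, 2 and 3 the log2 ratio was 0.66, 0.76 and 0.44.

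The log2 fold change of *mars-1* was 0.61 (standard error 0.23, unadjusted p = 0.0118), but it did not pass edgeR's adjustment (adjusted p = 0.389, and 0.335 with the replicate block). It passed with DESeq2 (adjusted p = 0.0749). It also passed edgeR without P1 replicate 1 (log2 fold change 0.57, adjusted p = 0.0198) and without both libraries of pair 1 (0.59, adjusted p = 0.0056). Fits without these libraries called more genes in all, 3.2% of the present genes P1-enriched without P1 replicate 1 and 3.64% without pair 1.

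*ears-1*, the glutamyl enzyme, had 941, 1923 and 2371 normalized read counts in P1, against 1202, 1207 and 1496 in AB. P1 replicate 1 was the lowest of the 6 libraries while P1 replicates 2 and 3 were the highest. Over the 6 libraries the log2 fold change was 0.42 (standard error 0.28, edgeR adjusted p = 0.695). Without P1 replicate 1 it was 0.70 and passed (adjusted p = 0.00755).

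The cytosolic enzymes with the smallest p among those lower in P1 were far from any call. *iars-1*, for isoleucine, had 2448, 5152 and 4493 normalized read counts in P1, against 4759, 4911 and 4251 in AB. P1 replicate 1 alone was low. On the log2 scale the fold change was -0.21 (standard error 0.25, edgeR adjusted p = 0.772), and 0.03 without that library.

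*nars-1*, for asparagine, had 9882, 7953 and 6865 normalized read counts in P1, against 9428, 8648 and 8469 in AB. *cars-1*, for cysteine, had 3005, 2165 and 2482 in P1, against 3620, 2152 and 2492 in AB. In both genes the groups overlapped and replicate 1 was the highest library of each cell. Their log2 fold changes were -0.11 for *nars-1* and -0.12 for *cars-1*.

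The most abundant synthetases per kb belonged to class II and were all near even. *kars-1*, for lysine, led with 10752 mean normalized read counts per kb, ahead of *dars-1* (aspartate) with 9942, *aars-2* (alanine) with 5857, *sars-1* (serine) with 5485 and *tars-1* (threonine) with 5204. *kars-1* had 26479, 22379 and 19358 normalized read counts in P1, against 24770, 21387 and 18979 in AB, so that the replicates differed more than the cells did. *dars-1* had 22860, 18441 and 15068 in P1, against 16627, 16490 and 14724 in AB. *dars-1* had a log2 fold change of 0.23, and those of the other 4 enzymes lay between -0.08 and 0.06.

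*aars-2* had 20892, 17234 and 15432 normalized read counts in P1, against 23631, 17480 and 15193 in AB. *sars-1* had 8053, 9892 and 8905 in P1, against 8744, 9386 and 9185 in AB. *tars-1* had 12846, 12438 and 12457 in P1, against 14032, 12345 and 11725 in AB. In all 3 enzymes the P1 and AB ranges overlapped.

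Cytosolic *wars-1*, for tryptophan, was the lowest member of all. Its raw counts were 54, 42 and 55 in P1, against 49, 48 and 100 in AB, and its mean level was 28.5 normalized read counts per kb. Its standard error of 0.71 on the log2 scale was the widest of the cytosolic enzymes, so a difference of the size seen in *mars-1* was not detectable at this depth.

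**Figure D3:**
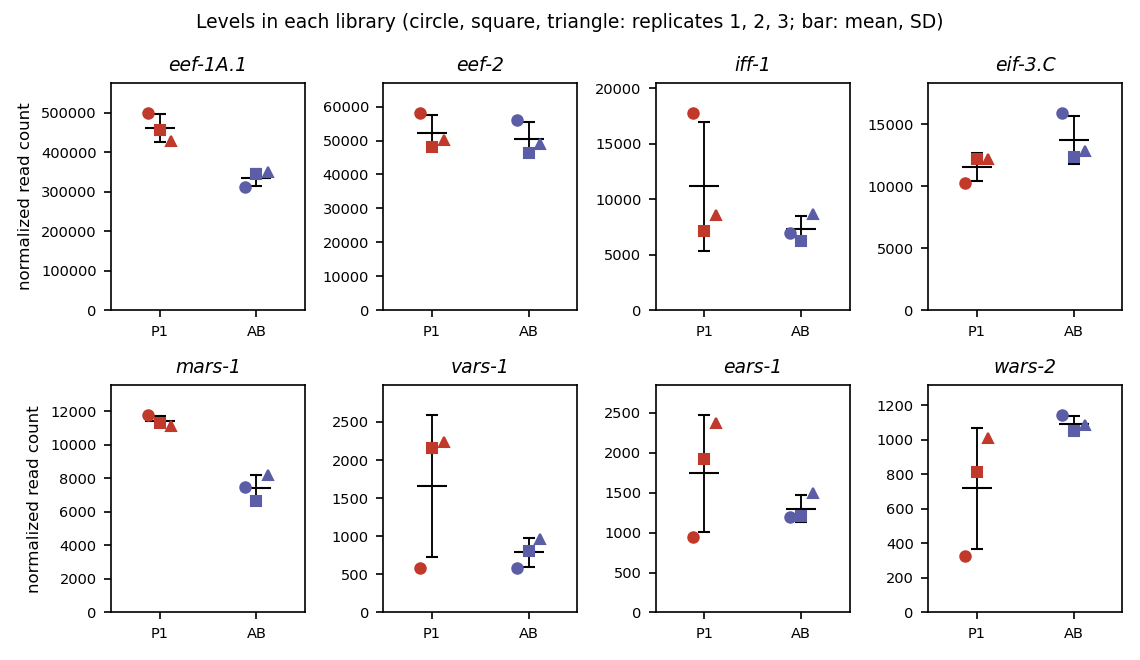
Normalized read counts of 8 members in each library, with P1 left and AB right. Circles, squares and triangles are replicates 1, 2 and 3 and the bars are the mean and SD (n = 3 each). The P1 and AB libraries of *eef-1A.1* and *mars-1* do not overlap, and P1 replicate 1 lies apart from the other P1 libraries in *iff-1*, *vars-1* and *ears-1*.

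Mitochondrial synthetases had log2 fold changes from -0.60 to 0.63, a wider range than the cytosolic ones, at lower levels. The highest was that of the prolyl enzyme gene *pars-2*, with 1390, 888 and 808 normalized read counts in P1, against 555, 567 and 858 in AB. AB replicate 3 lay between the P1 libraries, so the groups overlapped. For *pars-2* the log2 fold change was 0.63 (standard error 0.29, unadjusted p = 0.0366, edgeR adjusted p = 0.58), and 0.34 without P1 replicate 1.

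*aars-1*, the mitochondrial alanyl enzyme, had 149, 359 and 474 normalized read counts in P1, against 226, 148 and 292 in AB. P1 replicate 1 was at the level of the lowest AB library and P1 replicates 2 and 3 were above all of them. Its log2 fold change was 0.56 (standard error 0.41, edgeR adjusted p = 0.704). Without pair 1 it was 0.91 and passed (adjusted p = 0.0874).

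*wars-2* was the lowest of all members in fold change and had 327, 814 and 1012 normalized read counts in P1, against 1144, 1049 and 1082 in AB. Its P1 libraries lay below every AB library, P1 replicate 1 by far. The log2 fold change of *wars-2* was -0.60 (standard error 0.31, edgeR adjusted p = 0.661), and -0.28 without P1 replicate 1. The current annotation gives the identifier of *wars-2* the symbol *prx-10*, a gene for a peroxisome assembly protein, so these reads need not all come from a synthetase.

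*iars-2*, for isoleucine, had 733, 2255 and 2129 normalized read counts in P1, against 2230, 2462 and 2143 in AB. P1 replicate 1 was far below the other 5 libraries, and P1 replicates 2 and 3 overlapped with AB. For *iars-2* the log2 fold change was -0.42 (standard error 0.29, edgeR adjusted p = 0.704), and -0.08 without that library.

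Groups that did not overlap were also seen in *ears-2*, for glutamate, with 166, 163 and 291 normalized read counts in P1, against 159, 156 and 154 in AB. P1 replicate 3 alone stood well above the rest. In *fars-2*, for phenylalanine, the libraries held 1590, 1297 and 1401 in P1, against 1287, 1076 and 1265 in AB. The log2 fold changes were 0.40 for *ears-2* (standard error 0.43) and 0.23 for *fars-2* (standard error 0.24), and neither passed (edgeR adjusted p = 0.764 for *ears-2* and 0.746 for *fars-2*).

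For 9 amino acids both a cytosolic and a mitochondrial enzyme were among the members. Per kb, the cytosolic gene was higher for 8 of these 9, by 2.17 to 63.6 times. The largest ratio was that of alanine, with 5857 per kb for *aars-2* against 92.1 for *aars-1*. It was followed by asparagine (*nars-1* over *nars-2*, 11.1 times), aspartate (*dars-1* over *dars-2*, 11.1 times) and proline (*pars-1* over *pars-2*, 9.2 times).

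The ratios were smaller for phenylalanine, where the genes of the cytosolic subunits, *fars-1* and *fars-3*, exceeded *fars-2* by 3.75 and 2.81 times. They were also smaller for glutamate (3.72 times), serine (2.92 times) and isoleucine (2.17 times). Tryptophan went the other way, with 28.5 per kb for *wars-1* and 391 for *wars-2*. This case is uncertain, since the identifier of *wars-2* now carries the symbol *prx-10* and its reads need not all come from a synthetase. *wars-1* had only 42 to 100 raw counts per library. Which gene of an amino acid was higher was the same in P1 and AB for all 9, as in the case of isoleucine with 2.36 times in P1 and 2.03 times in AB. The levels are a description and rest on lengths of the current annotation.

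**Figure D4:**
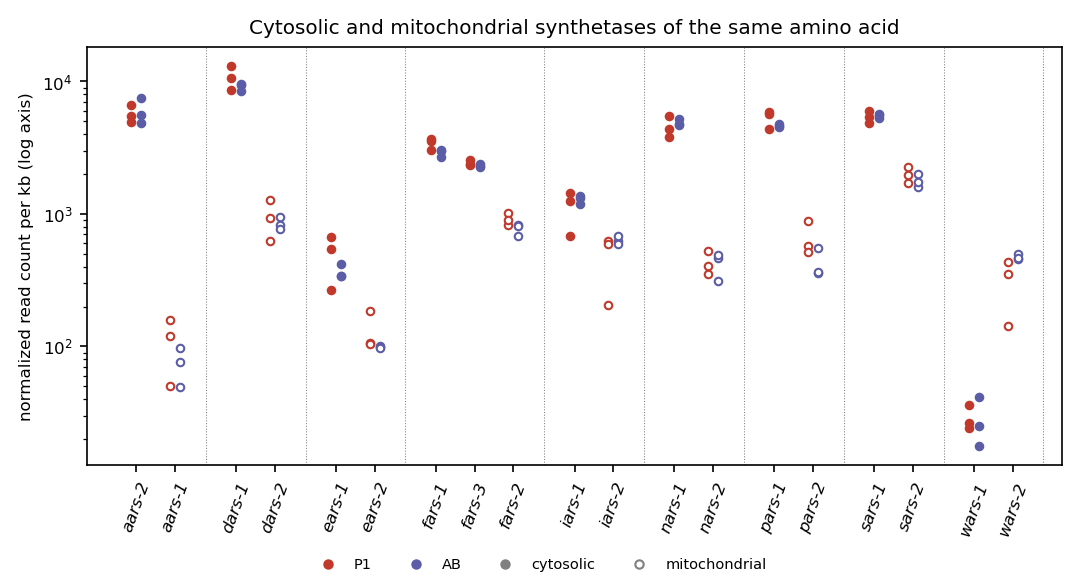
Normalized read counts per kb of the longest transcript, on a log axis, for cytosolic (filled) and mitochondrial (open) synthetases of the same amino acid, with P1 libraries left of AB libraries for each gene. The cytosolic gene lies above the mitochondrial one except for tryptophan, where the identifier of *wars-2* now carries the symbol *prx-10*. P1 replicate 1 is the low P1 point of *iars-2* and *wars-2*.

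The compartment of 4 further enzymes was not assigned. *vars-1*, named for valine, had the largest fold change of all members. It had 578, 2152 and 2242 normalized read counts in P1, against 584, 813 and 963 in AB. P1 replicates 2 and 3 stood above all AB libraries and P1 replicate 1 was at the level of AB replicate 1. For *vars-1* the log2 fold change was 1.07 (standard error 0.34, unadjusted p = 0.00419, edgeR adjusted p = 0.231). Without P1 replicate 1 it was 1.46 and passed (adjusted p = 2.91e-11), as it did without pair 1 (1.30, adjusted p = 7.7e-10).

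*vars-1* also passed without AB replicate 3 (1.25, adjusted p = 0.0174), in a fit that called 1.47% of the present genes P1-enriched. The gene model of *vars-1* in the files runs from 7731615 to 8316095 on chromosome V in ce10, a span of 584481 bases, and overlaps 159 other gene models. The current annotation gives the gene a span of 3615 bases. The files give the ribosomal protein gene *rpl-39* the same interval. Which reads were counted for *vars-1* is therefore uncertain.

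*vars-2*, also known as *glp-4*, was at 2660, 3233 and 3202 normalized read counts in P1, against 3719, 2363 and 2230 in AB. AB replicate 1 was its highest library. edgeR gave a log2 fold change of 0.13 (standard error 0.24, edgeR adjusted p = 0.879), and 0.48 without pair 1 (adjusted p = 0.0681). *vars-2* is named here after its values were seen. *rars-2* had the lowest fold change of these 4 enzymes at -0.07, and *yars-1* was close to it at -0.07. In the current annotation the identifier of *yars-1* carries the symbol *yars-2*.

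By structural class, the 15 synthetases of class I had a median log2 fold change of 0.04 and the 17 of class II one of 0.13. The classes differed most in pair 1, where the median log2 ratio was -0.30 for class I and 0.08 for class II. In pairs 2 and 3 it was 0.13 and 0.15 for class I, and 0.16 and 0.03 for class II. Without P1 replicate 1 the order was reversed, with a median log2 fold change of 0.11 for class I and 0.06 for class II. Class I transcripts were also longer, with a median of 2991 bases against 1893 for class II.

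Transcript length moved with the ratio in pair 1. Across the 22 factors Spearman's rho between length and the log2 ratio was -0.76 in pair 1, -0.51 in pair 2 and 0.03 in pair 3. Across the 32 synthetases it was -0.62, 0.26 and 0.49. Over all present genes it was -0.52, -0.04 and 0.04. These are correlations across genes of the same libraries and are given as a description. The factors were the shorter group, with a median of 1345 bases, against 2044 for the synthetases and 1546 for all present genes.

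Set beside present genes of the same length decile, the factors were still higher in pair 1. Of the 22 factors, 21 exceeded the pair 1 median of their decile, by a median of 0.60 on the log2 scale, and 24 of the 32 synthetases did so, by a median of 0.37. In pair 2 the median differences were 0.08 for the factors and 0.13 for the synthetases, and in pair 3 they were 0.01 for each group. Above the median of their decile were 16 factors and 26 synthetases in pair 2, and 13 factors and 21 synthetases in pair 3. For *mars-1*, with a longest transcript of 2995 bases, the pair 1 ratio was 0.66 where the median of its decile was -0.69. For *iff-1*, with 674 bases, it was 1.36 where the median was 1.02. The part of length and of P1 replicate 1 in these ratios was not tested.

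**Figure D5:**
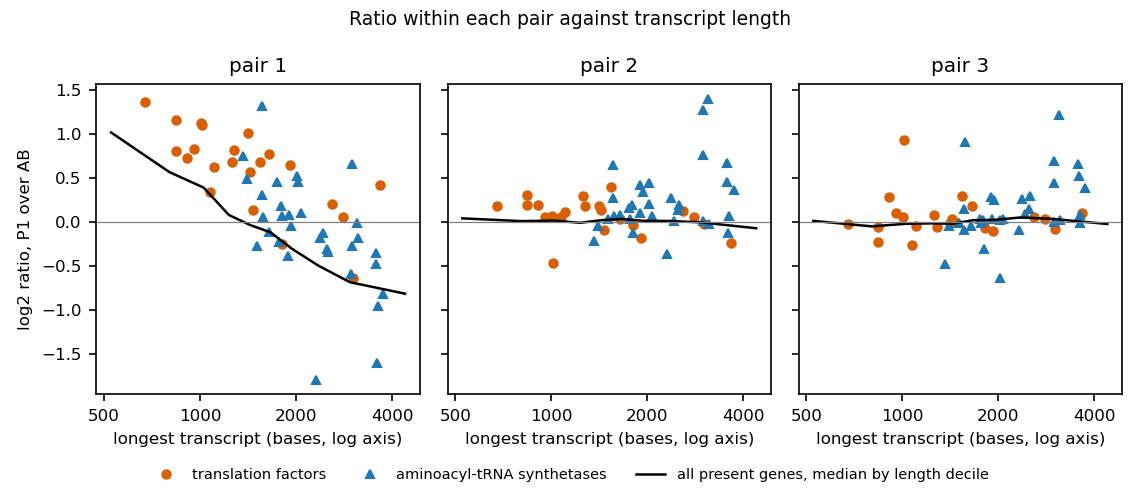
Log2 ratio of P1 over AB in each pair against the length of the longest transcript on a log axis. Circles are the 22 factors, triangles the 32 synthetases, and the line joins the medians of all present genes by length decile. In pair 1 the line falls with length, to -0.82 in the longest decile, and most factors lie above it, whereas in pairs 2 and 3 it stays near 0.

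Other translation genes set the members in context. The 73 present genes for cytosolic ribosomal proteins, of 74 listed, had a median log2 fold change of 0.69, and all 73 values were above 0. None of these genes passed edgeR's adjustment or DESeq2's. At an unadjusted p under 0.05, 58 were higher in P1 with edgeR, against 5.8% of the present genes. With DESeq2 46 were, against 4.81%. They were the shortest group, with a median length of 534 bases. In pairs 1, 2 and 3 their median log2 ratio was 1.17, 0.15 and 0.53. Without P1 replicate 1 their median log2 fold change was 0.39. That fit called 12 of them P1-enriched, against 3.2% of the present genes.

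The eIF4E isoforms and eIF4G, the cap-binding genes, ranged from -0.61 for *ife-4* to 0.62 for *ife-3*, and 0 of 6 passed with edgeR or DESeq2, also at an unadjusted p under 0.05. A list of 20 further genes of translation had a median of 0.15, and 0 of 20 passed with either tool. In it *rack-1*, for a scaffold on the small subunit, had a log2 fold change of 0.62 and *tct-1*, for a translationally controlled tumour protein, one of 0.61. With edgeR the adjusted p was 0.549 for both, and the unadjusted p was 0.0298 for *rack-1* and 0.0304 for *tct-1*.

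A further 12 gene models carry a factor or synthetase symbol only in the current annotation and so lie outside the name rule. Their median log2 fold change was 0.04 and 0 of 12 passed with edgeR or DESeq2. They include the alpha and gamma subunits of eIF2 (*Y37E3.10* and *Y39G10AR.8*), with log2 fold changes of 0.44 and 0.35, beside 0.24 for the beta subunit gene *iftb-1*. The lowest of the 12 was *D2085.3*, for the epsilon subunit of eIF2B, at -0.63 (standard error 0.27, edgeR adjusted p = 0.541). Its unadjusted p was 0.0287. The highest was *Y65B4A.6*, for the helicase eIF4A3, at 0.87 (standard error 0.42, edgeR adjusted p = 0.629). This list was made after the data were seen.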

How the data were processed

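The authors filtered the reads with Tagdust, mapped what remained with TopHat 1.4.0 (build ce10), assigned reads to WS220 RefSeq gene models by HTSeq 0.5.3 and took size factors from DESeq 1.2.1. They deposited raw read counts and a normalized signal, the counts of a library divided by 1 size factor, called normalized read counts here. Which library was read on which sequencer, how strand was used and how reads with several matches were treated are not given in the sources used here, so overlapping genes are uncertain. Gene models of 12 members overlap another one (*cars-1*, *dars-1*, *fars-1*, *iars-1*, *rars-1*, *sars-1*, *tars-1*, *ears-2*, *fars-2*, *vars-1*, *eef-1G* and *iff-2*).

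Counts of all 13717 gene models with at least 1 read were fitted by quasi-likelihood with TMM factors and no block (glmQLFit, then glmQLFTest, edgeR 4.0.16, R 4.3.3), with Benjamini-Hochberg adjustment over all of them, and a call needed an adjusted p under 0.10 in a present gene. The cut of 10 normalized read counts for a present gene is that of the authors' code, while their methods text has 50. The test was checked on simulated counts of independent libraries. They held no pairs, no library set apart and no trend with length, so the check does not cover these features of the data. Fold changes are P1 over AB, and their edgeR standard errors are the absolute log2 fold change divided by the square root of the F statistic. Ratios within pairs used normalized read counts plus 1, CPM are counts scaled to the total of counted reads, and means and SDs are over libraries. Per kb values use the longest WBcel235 transcript, matched by WormBase identifier, which gave a length for 54 of 54 members. Coordinates are those of the files in ce10. Python 3.11.15 with numpy 2.4.6, scipy 1.17.1 and matplotlib 3.10.9 were used for summaries and figures.

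Libraries of the same number are paired because the study pooled matched cells for each replicate. Their deviations from the mean of their cell correlated at 0.175, 0.220 and 0.174 in pairs 1, 2 and 3. The study used different sequencer models and read lengths, and which library had which is not given. The p-values therefore measure the spread between libraries of the same cell. Pools of cells, amplification and sequencing cannot be told apart in that spread. A gene with 0 reads could still hold up to 3 counts, or 0.0843 to 0.141 CPM depending on the library. That limit covers counting error alone: the RNA was amplified and no molecular identifiers are described.

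The members and lists were chosen with earlier results of these data known. Roles and compartments of the members were assigned from general knowledge of the gene names. Named one by one were, in each group, the 5 members with the smallest p in each direction (3 factors were lower in all), the 5 with the highest level per kb, the paralogs of eEF1A and eIF5A, and the lowest and highest of each role. Values of *eif-3.E*, *ears-2*, *fars-2* and *vars-2* were added after they had been seen. Alternatives were DESeq2 1.42.0, other normalizations and filters, the replicate block, a stricter threshold, a stricter rule for present genes, another pseudocount, the median transcript length, and the omission of each library and each pair. No sequences are shown.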

Additional observations from a re-analysis of the deposited data

How the results depend on the processing

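No member was called AB-enriched under any alternative that was run, and the median of the factors stayed above 0 in each of them. Without 1 library or 1 pair, the median log2 fold change of the factors ranged from 0.05 to 0.46 and that of the synthetases from -0.01 to 0.10, and the number of P1-enriched members ranged from 0 to 2 for the factors and from 0 to 5 for the synthetases. The 2 factors were called without P1 replicate 2, where 3.52% of all present genes were P1-enriched. The 5 synthetases were called without both libraries of pair 1, where 3.64% of them were. DESeq2 called 1 synthetase P1-enriched, against 1.2% of all present genes. With the replicate block 0 members were called, and over all present genes 51 were P1-enriched and 40 AB-enriched, against 68 and 48 without it. The block changed no call of a member. In pairs 2 and 3 alone, chosen after seeing the data, 20 synthetases were higher in P1 and 5 lower, against 8 and 2 in all 3 pairs. The shares of all present genes also rose with fewer pairs. They were 33.6% higher and 32.8% lower in pairs 2 and 3, against 19.1% and 21.4% in all 3.

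Over all present genes, P1-enriched calls numbered 27 and AB-enriched calls 25 with only present genes in the fit, and 27 and 26 with filterByExpr. AB-enriched calls numbered 75 with DESeq2. Without 1 library or 1 pair the calls ranged from 44 to 289 P1-enriched and from 26 to 279 AB-enriched. Of 405 values of 27 named members under alternatives, 27 had the other sign, in 11 members, none of them called. The causes were not tested. Of the 10 highest levels per kb named here, only that of *tars-1* moved beyond its SD, to 5546 with the median transcript length from 5204 with the longest. Members outside these 10 could move more. *nars-1* went from 4737 to 6844 per kb, above *aars-2*, *sars-1* and *tars-1*, and *eif-3.I* went from 1196 to 2039. A fit without 1 library leaves 2 libraries in that cell, which is then assumed to vary as the other cell does. Single members had standard errors near 0.25 on the log2 scale in the fit without a block, which limits the differences that this fit can show. With the replicate block the standard errors of most members fell, as that of *eef-2* did from 0.25 to 0.15. Only those of *iars-2*, *wars-2* and *lars-1* rose, that of *iars-2* from 0.29 to 0.30.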
